A study of Mus musculus with 8 samples.

Results

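The 10 genes described here belong to the machinery by which cells recognise and take up dying cells, debris and synapses. They are the receptors Axl, Mertk, Tyro3, Megf10 and Cd36, the bridging molecules Gas6, Pros1 and Mfge8, the anti-engulfment signal Cd47 and the adaptor Gulp1. The list of names was drawn up with earlier results of these data known. Its members were matched by gene name, with no threshold on a measured value, and all 10 were found among the 54532 genes listed for PTS + RS and RS and the 28229 genes listed for RGFP109 and NaCl. All 10 passed the filter on low counts in each comparison.

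RNA was sequenced from the brains of male C57BL/6 mice in 8 libraries, 2 in each of 4 groups, all dated Day 21 in their labels. PTS + RS mice had a photothrombotic stroke, a light-induced clot in the vessels of the cortex, together with restraint stress, and RS mice had restraint stress with no stroke. These 4 libraries were labelled cortex. The other 4 libraries all came from PTS + RS mice, given either RGFP109 or NaCl. The labels call RGFP109 an HDAC3 inhibitor, and the authors describe it as selective for the histone deacetylases HDAC1 and HDAC3. It was given at 60 mg/kg under the skin once a day for 2 weeks. In both of these groups replicate 1 was labelled cortex and replicate 2 amygdala. This is the course in the labels, and another description of the treatment gives a longer one. The vehicle of RGFP109 held DMSO and a cyclodextrin, and the control libraries are called NaCl by their labels. An age is given for the mice of a behavioural test but not for the sequenced mice. The sources do not say whether a library came from 1 mouse or several, so p-values measure only the spread between these libraries, which may be technical. Libraries of stroke without restraint were not analysed here, so all groups share the restraint, and the first comparison asks what the stroke adds to it.

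Axl, Mertk and Tyro3 form the TAM family of receptor tyrosine kinases, which do not bind their targets directly. The secreted proteins Gas6 and Pros1 (protein S) bind phosphatidylserine, the lipid that dying cells expose, with one end and the TAM receptors with the other. Mfge8 bridges the same lipid to integrins, Cd36 is a scavenger receptor for oxidised lipids, and Megf10 is an engulfment receptor best known from astrocytes, upstream of the adaptor Gulp1. Cd47 on healthy cells engages Sirpa on phagocytes and holds engulfment back. In the brain, microglia and astrocytes carry most of this machinery, whereas Tyro3 is the TAM receptor best known from neurons.

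The promoters of the 5 genes that passed the threshold between PTS + RS and RS are shown so that the start regions of the genes that changed can be read side by side. These genes lie on 4 chromosomes, with Mertk and Tyro3 on the same one, and of the others Gas6 lies on chromosome 8, Mfge8 on 7, Cd47 on 16, Gulp1 on 1 and Megf10 on 18. Each sequence is the 250 bases before the RefSeq start in GRCm38.p6, written 5′ to 3′ on the strand of the gene, and capitals mark matches to the motifs searched. The windows are chr7:25788734-25788983 on the minus strand, chr2:128698665-128698914 on the plus strand, chr16:62854057-62854306 on the plus strand, chr5:17835897-17836146 on the minus strand and chr2:119799264-119799513 on the plus strand.
Axl: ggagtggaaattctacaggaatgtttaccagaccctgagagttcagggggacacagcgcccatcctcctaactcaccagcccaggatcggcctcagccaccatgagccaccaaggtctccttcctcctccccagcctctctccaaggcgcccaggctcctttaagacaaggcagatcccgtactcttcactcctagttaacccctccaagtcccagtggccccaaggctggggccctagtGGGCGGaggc
Mertk: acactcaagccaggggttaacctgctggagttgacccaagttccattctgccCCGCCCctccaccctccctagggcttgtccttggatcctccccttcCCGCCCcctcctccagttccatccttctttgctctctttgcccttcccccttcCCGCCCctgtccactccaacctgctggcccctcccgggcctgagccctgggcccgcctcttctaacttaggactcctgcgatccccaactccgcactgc
Pros1: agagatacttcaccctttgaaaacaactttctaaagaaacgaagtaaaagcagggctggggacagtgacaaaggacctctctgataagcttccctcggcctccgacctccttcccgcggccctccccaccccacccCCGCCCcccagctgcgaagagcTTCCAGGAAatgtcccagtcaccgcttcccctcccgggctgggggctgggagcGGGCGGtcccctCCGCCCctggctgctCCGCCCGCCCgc
Cd36: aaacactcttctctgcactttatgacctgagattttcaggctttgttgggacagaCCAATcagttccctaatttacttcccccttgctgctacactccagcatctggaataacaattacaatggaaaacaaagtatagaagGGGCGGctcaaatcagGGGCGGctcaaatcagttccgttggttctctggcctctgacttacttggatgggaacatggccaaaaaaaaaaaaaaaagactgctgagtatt
Tyro3: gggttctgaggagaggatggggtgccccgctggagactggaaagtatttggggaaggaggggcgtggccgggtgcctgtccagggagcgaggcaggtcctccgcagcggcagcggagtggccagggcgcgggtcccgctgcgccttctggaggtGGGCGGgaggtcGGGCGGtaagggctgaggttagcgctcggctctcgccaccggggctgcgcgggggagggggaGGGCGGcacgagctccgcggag
Axl, Mertk, Pros1 and Cd36 were higher and Tyro3 was lower in PTS + RS. All 5 windows held the GC box GGGCGG on either strand, with 1 match for Axl, 3 for Mertk, 5 for Pros1, of which the last 2 overlap, 2 for Cd36 and 3 for Tyro3. The motif occurred in 32.7% of the 32817 promoter windows of the same length. It was present as well before the starts of Gas6 (4 matches), Mfge8 (4), Cd47 (2) and Gulp1 (1), none of which passed the threshold, so its presence did not separate the genes that changed from those that did not. The GAS motif TTCNNNGAA, found in 7.01% of all windows, occurred once, before Pros1, and CCAAT, found in 33.8%, occurred once, before Cd36. No window of these 9 genes held the TATA box TATAAA (12.4% of all windows), the AP-1 motif TGACTCA (4.46%) or the PU.1 motif GAGGAAGT (2.44%). The share of G and C ranged from 43.2% for Cd36 to 73.2% for Tyro3 and for Cd47, against a median of 52.4% over all windows. The Cd36, Tyro3 and Cd47 windows lie at RefSeq starts inside the longer gene models of the deposited annotation. That of Gulp1 spans the start of its gene model. For Cd47 2 promoters were listed, and the first was used. Megf10 was not included.

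Several libraries stood apart before any comparison. Total counts ranged from 15902013 to 21712033. The library labelled NaCl replicate 1 carried a summed level of 1501 CPM (counts scaled to library size) over 8 olfactory bulb markers, against 24.8 to 51.0 CPM in the 7 others. The libraries labelled amygdala held 1018 and 1160 CPM of 8 striatal markers, against 83.5 to 207 CPM in the 6 labelled cortex. They also held more of the cortical projection neuron markers (765 and 675 CPM against 303 to 386 CPM), while the 9 amygdala markers, at 349 CPM in each, lay within the 263 to 413 CPM of the libraries labelled cortex. Gene by gene against the RGFP109 and NaCl libraries labelled cortex, 6 of the 8 tested amygdala markers were higher and 2 lower. Their median log2 fold change was 0.49, against -0.029 for all tested genes, and none passed the threshold. All 8 striatal and all 8 cortical projection neuron markers were higher as well, with medians of 3.20 and 0.93. The markers therefore did not settle the labelled tissue, and these libraries are named here by label. Lymphocyte markers summed to 21.7 and 19.2 CPM in the libraries labelled amygdala and to 2.63 CPM or less elsewhere. Choroid plexus markers ran at 2739 and 5508 CPM in RS, at 2515 and 223 CPM in PTS + RS, at 2190 CPM in RGFP109 replicate 1 and at 143 to 219 CPM in the 3 remaining libraries. The part of these differences in the results below was not tested, and for the 10 genes values without each library are given where they change a call.

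Levels are compared between genes in FPKM, the deposited unit that corrects for gene length. In RS the order ran from Gas6 (47.4 ± 7.31 FPKM, SD, n = 2) through Mfge8 (27.3 ± 1.61), Cd47 (27.0 ± 0.705) and Tyro3 (25.5 ± 0.0512) to Axl (8.85 ± 0.329), Mertk (8.45 ± 0.180), Megf10 (3.77 ± 0.364), Pros1 (3.26 ± 0.408), Gulp1 (1.36 ± 0.318) and Cd36 (0.293 ± 0.0181). The libraries of Mfge8 and Cd47 overlapped in this order, as did those of Megf10 and Pros1. Gas6 was thus the most abundant member and Cd36 the least. In PTS + RS the top was again Gas6, at 46.3 ± 7.5 FPKM, and Pros1, at 7.17 ± 1.56 FPKM, stood above Megf10, at 4.06 ± 0.120 FPKM, with no overlap between the libraries of the pair.

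**Figure D1:**
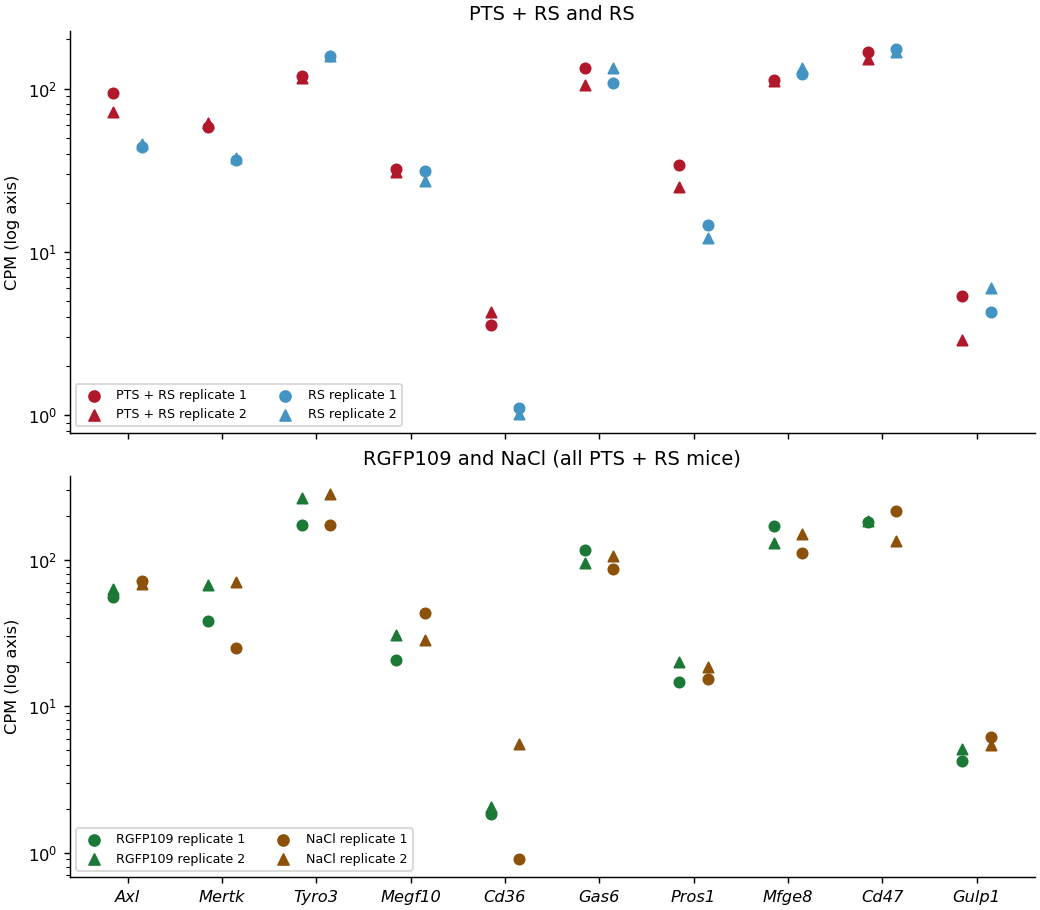
CPM of the 10 genes in each of the 8 libraries, on a log axis, with one point per library. Axl, Mertk, Cd36 and Pros1 lay higher and Tyro3, Mfge8 and Cd47 lay lower in both PTS + RS libraries than in both RS libraries. In the lower panel the groups overlapped for 8 of the 10 genes.

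Between PTS + RS and RS, 4 of the 10 genes rose (Axl, Mertk, Cd36 and Pros1) and 1 fell (Tyro3), by edgeR's quasi-likelihood test at a Benjamini-Hochberg adjusted p under 0.05 over 17581 tested genes. Of all tested genes 3.55% were called, 2.96% higher and 0.586% lower. With the additional limit of a log2 fold change of 1, Cd36 and Pros1 remained among the 10, against 2.12% of all genes called higher and 0.0910% lower. The median log2 fold change of the 10 genes was 0.04, beside -0.0015 for all tested genes. The libraries of the groups did not overlap for 7 of the 10 genes, 4 of them higher and 3 lower, where 25.7% of all genes were separate and higher and 24.5% separate and lower.

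Among the TAM receptors, Axl was at 93.6 and 71.8 CPM in the PTS + RS libraries and at 43.6 and 45.9 CPM in the RS libraries. Both PTS + RS libraries lay above both RS libraries, although the PTS + RS pair itself was spread. The fitted difference was 1.85-fold (log2 0.89, SE 0.13, adjusted p = 0.0152). Mertk, the TAM receptor best known from resident macrophages, was at 58.5 and 61.4 CPM in PTS + RS and at 36.3 and 37.4 CPM in RS. The pairs were tight and separate, at 1.63-fold (log2 0.70, SE 0.087, adjusted p = 0.00750), the smallest adjusted p of the 10 genes. Tyro3 went the other way, with 119.5 and 116.8 CPM in PTS + RS and 159.0 and 158.3 CPM in RS. Its replicates differed by far less than the groups, and its level was 1.34 times higher in RS (log2 -0.43, SE 0.070, adjusted p = 0.0231).

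The makeup of the family shifted with these changes. Tyro3 made up 60.1% and 59.0% of the summed FPKM of the TAM receptors in the RS libraries and 37.5% and 39.9% in the PTS + RS libraries. The sum itself was 42.5 and 43.1 FPKM in RS and 50.9 and 47.0 FPKM in PTS + RS. In RS, Axl held 20.3% and 21.1% of it and Mertk 19.6% and 19.9%, whereas in PTS + RS Axl held 36.2% and 30.2% and Mertk 26.3% and 30.0%. In the libraries of the second experiment, which all came from PTS + RS mice, Tyro3 held between 58.2% and 60.4%, close to the 59.0% and 60.1% of RS. The tables were normalised separately, but a share within a library does not depend on the scaling.

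**Figure D2:**
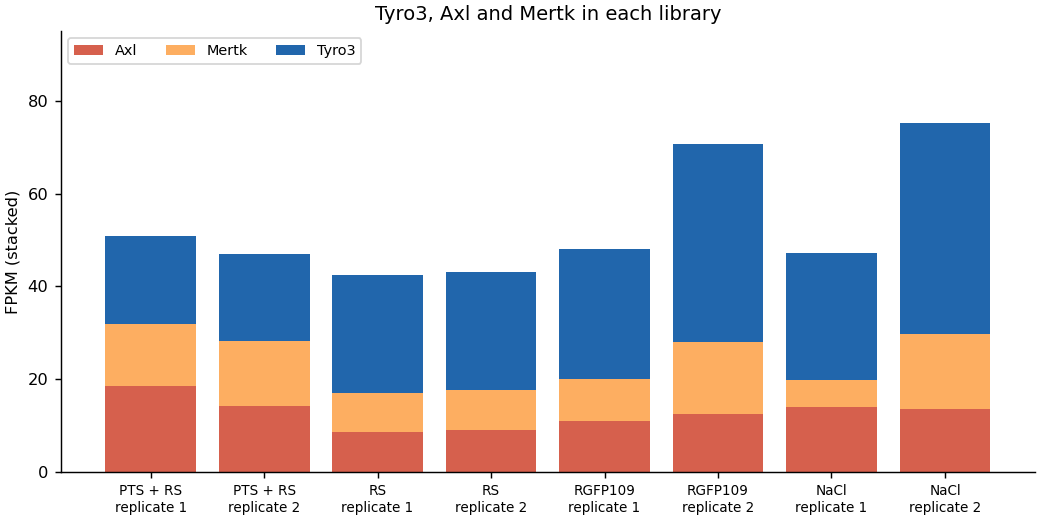
FPKM of Axl, Mertk and Tyro3 stacked for each of the 8 libraries. Tyro3 took 37.5% and 39.9% of the bar in the PTS + RS libraries and at least 58.2% in the 6 other libraries, and the bars were tallest, at 70.8 and 75.2 FPKM, in RGFP109 replicate 2 and NaCl replicate 2.

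Of the other receptors, Cd36 was the lowest and changed most. It was read 61 and 71 times in the PTS + RS libraries and 20 and 16 times in the RS libraries, which is 3.56 and 4.25 CPM against 1.10 and 1.01 CPM. The groups were apart by 3.67-fold (log2 1.88, SE 0.30, adjusted p = 0.0216). Megf10 was at 32.3 and 30.8 CPM in PTS + RS and at 31.2 and 27.2 CPM in RS. Its groups overlapped, and the 95% interval of its log2 fold change ran from -0.16 to 0.38 (adjusted p = 0.671).

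The ligands of the TAM receptors parted. Pros1 was at 34.1 and 25.0 CPM in PTS + RS and at 14.6 and 12.2 CPM in RS. Every PTS + RS library was above every RS library, at 2.21-fold (log2 1.14, SE 0.18, adjusted p = 0.0205). Gas6, the more abundant ligand, was at 132.9 and 105.1 CPM in PTS + RS and at 108.3 and 134.5 CPM in RS. These ranges overlapped almost completely, with a log2 fold change of -0.03 (95% interval -0.36 to 0.30, adjusted p = 0.945). The ratio of Gas6 to Pros1 in FPKM was 11.9 and 17.7 in RS and 6.24 and 6.76 in PTS + RS. Mfge8, the bridge to integrins, was at 113.0 and 110.6 CPM in PTS + RS and at 123.7 and 134.2 CPM in RS. The groups did not overlap, yet the difference (log2 -0.21, 95% interval -0.39 to -0.02) failed the correction, with an unadjusted p of 0.0325 and an adjusted p of 0.229.

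Neither Cd47 nor Gulp1 passed the test. Cd47 was at 166.8 and 151.0 CPM in PTS + RS and at 173.7 and 167.1 CPM in RS, with both PTS + RS libraries below RS by a margin that was small beside the spread (log2 -0.10, 95% interval -0.29 to 0.09, adjusted p = 0.572). Gulp1, the adaptor of Megf10, was at 5.37 and 2.87 CPM in PTS + RS and at 4.30 and 5.99 CPM in RS. Its log2 fold change of -0.32 had the widest interval of the 10 genes, from -1.11 to 0.48 (adjusted p = 0.690).

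Mertk passed in each of the 14 fits made, and the other 4 calls depended on the RS replicates or on the test. Without RS replicate 1, Axl, Mertk and Pros1 passed and Tyro3 (log2 -0.43, adjusted p = 0.203) and Cd36 (log2 1.94, adjusted p = 0.0609) did not. Without RS replicate 2 the outcome was alike, with Tyro3 at an adjusted p of 0.206 and Cd36 at 0.0747. In each of these fits the lone RS library was assumed to vary like the PTS + RS pair, and 3 of the 10 genes were called, beside 2.29% of all genes without RS replicate 1 and 2.01% without RS replicate 2. All 5 passed without PTS + RS replicate 1 (9.70% of all genes) and without PTS + RS replicate 2 (14.6%). Axl and Pros1 missed the threshold with limma-trend on log2(FPKM + 1), at adjusted p of 0.0581 and 0.0667, and on log2(FPKM + 0.1), at 0.0521 and 0.0593, and Tyro3 missed it in the first of these fits, at 0.0507.

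**Figure D3:**
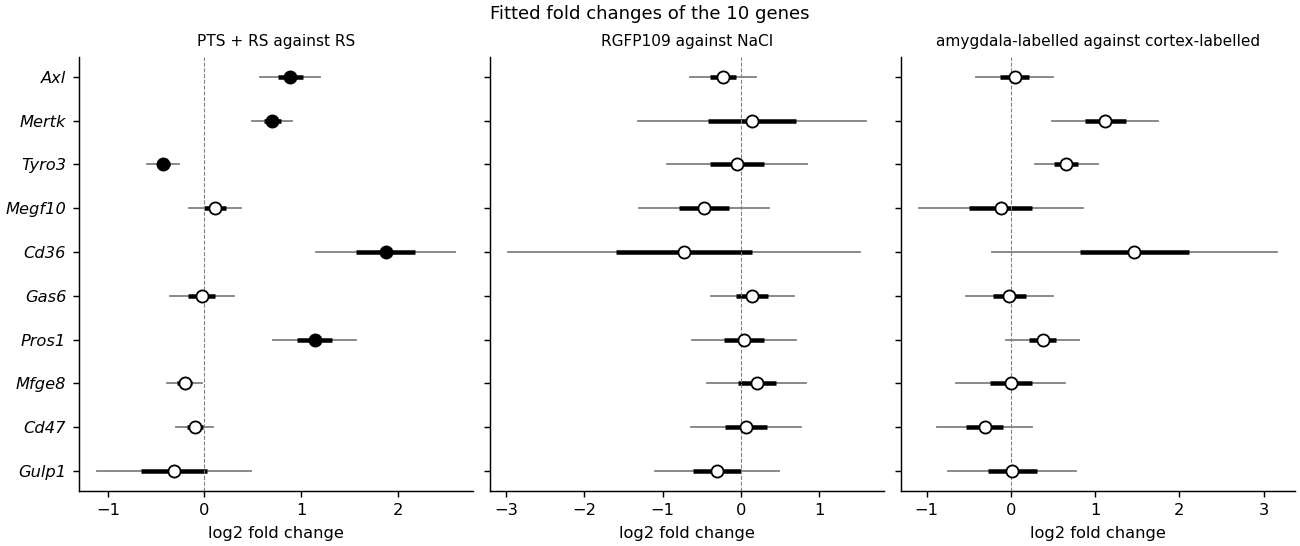
Fitted log2 fold changes of the 10 genes in the 3 comparisons, with the SE as a thick bar and the 95% interval as a thin line, filled where the adjusted p was under 0.05. Filled points occur in the left panel alone, for Axl, Mertk, Tyro3, Cd36 and Pros1, and the axes of the panels differ in range.

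The wider pathway was read from 7 lists, which were drawn up with earlier results of these data known. They held 64 genes, of which 62 were tested. Of these, 24 rose and 0 fell between PTS + RS and RS, with a median log2 fold change of 0.33. Of all tested genes 2.96% were called higher and 0.586% lower. The count of genes that rose ran from 21 with limma-trend on log2(FPKM + 1) to 31 without PTS + RS replicate 2, where 4 fell. It was 23 without either RS library, and 1 gene fell without PTS + RS replicate 1 and with no filter on counts. All 8 complement genes rose, with a median of 2.69. The largest changes among them were those of C3ar1, the receptor of the C3a fragment (14.5-fold, log2 3.85, SE 0.26), of C3, the source of the opsonin iC3b (11.7-fold), and of C1qb, a chain of the initiating C1q complex (6.88-fold). Of 12 tested receptors of engulfment outside the 10 genes, 6 rose, led by Msr1, a scavenger receptor, Cd300lf, a phosphatidylserine receptor, and Trem2, a microglial lipid receptor (7.18-fold, from 9.43 to 68.0 CPM). Msr1 was read 84 and 69 times in PTS + RS and 4 times and 1 time in RS, a ratio of 30.7 with an exact 95% counting interval of 12.9 to 95.9. Cd300lf was read 42 and 29 times in PTS + RS and 4 and 0 times in RS, a ratio of 17.8 (6.66 to 67.2). Msr1 and Cd300lf passed the filter on low counts through the PTS + RS libraries alone, so they could only come out higher there. Both count among the 6 that rose and, with Cd22 below, among the 24. The median of the 12, with Msr1 and Cd300lf included, was 1.00. Adgrb1 (BAI1), a phosphatidylserine receptor upstream of Elmo1 and Dock1, stood at a log2 fold change of -0.22 (SE 0.11, adjusted p = 0.356), and Timd4 and Havcr1 were too low to be tested. These last 3 were singled out after their values were seen.

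The remaining lists moved in part. Of 12 adaptors and cytoskeletal genes 4 rose, led by Rac2 (6.58-fold), a GTPase of blood-derived cells, Dock2 (4.82-fold), its exchange factor, and Vav1 (4.59-fold), also an exchange factor, and the median was 0.16. Of 7 partners that hold engulfment back 2 rose, namely Cd22, an inhibitory lectin (91 and 53 reads against 3 and 3, ratio 24.1, counting interval 10.8 to 66.7), and Ptpn6 (4.26-fold), the phosphatase SHP-1 that acts downstream of inhibitory receptors. Cd22 and Cd200r1 passed the filter on low counts through the PTS + RS libraries alone, so they could only come out higher there. Cd200r1, which did not pass the threshold, was read 18 and 14 times in PTS + RS and 4 and 2 times in RS. Without either PTS + RS library 4 of these 7 passed. Sirpa, the receptor of Cd47, was at a log2 fold change of 0.30 (SE 0.083, adjusted p = 0.120), singled out as the partner of a member. Of 9 genes of phagosome maturation 2 rose, Cd68 (8.0-fold) and Lamp1 (1.55-fold), both lysosomal membrane proteins, and 1 passed without either RS library and 3 without PTS + RS replicate 2. Of 12 genes of find-me and eat-me signals and lipid exposure 2 rose, P2ry6 (4.59-fold), a nucleotide receptor that triggers uptake, and Cx3cr1 (3.46-fold), the receptor of neuronal fractalkine. Cx3cr1 is also among the microglia markers below. Neither protease that sheds Axl and Mertk from the cell surface passed, with Adam17 at 0.54 (SE 0.14, adjusted p = 0.0925) and Adam10 at 0.05 (SE 0.083, adjusted p = 0.811).

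**Figure D4:**
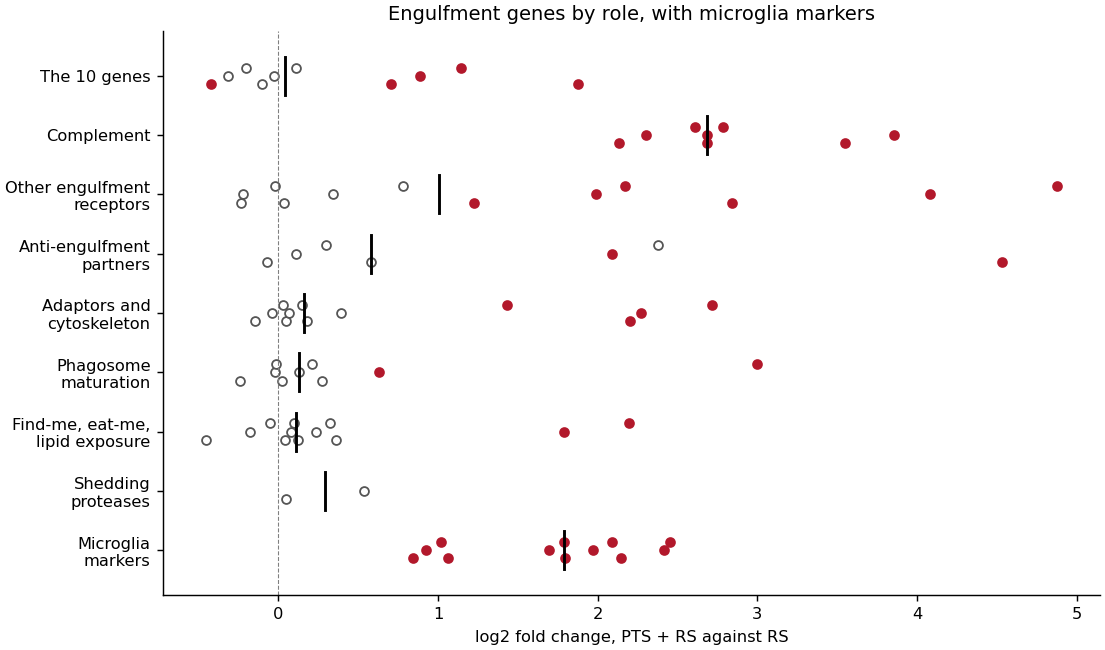
Log2 fold change between PTS + RS and RS of each tested gene, by list, with filled points at an adjusted p under 0.05 and a black line at the median of the list. Every complement gene and every microglia marker is filled, and the median of the 10 genes, 0.04, is close to the 0.11 of the find-me and eat-me list.

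Markers of some cell types also differed between PTS + RS and RS. All 12 microglia markers rose, with a median log2 fold change of 1.79, and their summed level was 1452 and 1172 CPM in PTS + RS against 383 and 338 CPM in RS. Without RS replicate 1, 11 of them passed, and without RS replicate 2, 10 passed. The log2 fold changes of Axl, Mertk and Pros1 lay below that median and that of Cd36 just above it. Of 10 astrocyte markers 4 rose, with a median of 0.32 and sums of 7954 and 6752 CPM against 4625 and 4660 CPM. The most affected was Gfap (4.84-fold), the filament protein of reactive astrocytes. Of 5 markers of oligodendrocyte precursors 2 rose, Gpr17 (1.70-fold) and Vcan (1.65-fold), and of 6 tested mural cell markers 1 rose, Rgs5 (1.41-fold). None of 8 oligodendrocyte markers or 8 endothelial markers passed, although all had a log2 fold change above 0, with medians of 0.27 and 0.24. None of 10 neuron markers passed, with a median of -0.11 and sums of 8233 and 9835 CPM against 9636 and 9608 CPM. Of 8 striatal neuron markers 1 fell, with a median of -0.09 and sums of 92.9 and 83.5 CPM against 112 and 122 CPM. Of 8 tested amygdala markers 1 fell, with a median of 0.11 and sums of 372 and 331 CPM against 411 and 413 CPM. No cortical projection neuron marker of 8 passed, with a median of 0.04. None of 5 tested border macrophage markers passed, with a median of 0.74 and sums of 30.6 and 14.2 CPM against 12.5 and 10.2 CPM. The markers of monocytes and neutrophils summed to 0.252 to 1.98 CPM and those of lymphocytes to 0.946 to 2.63 CPM in these 4 libraries, too low for any of them to be tested. None of the 7 choroid plexus markers passed, with a median of -1.76. In bulk tissue, more cells of a type and more RNA per cell cannot be told apart, and the part of these cell types in the changes of the 10 genes was not tested.

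Between RGFP109 and NaCl, none of the 10 genes passed the edgeR test, and 0% of the 17565 tested genes did. All 10 had an adjusted p of 0.9997 and the smallest unadjusted p was 0.198, for Megf10, while 1.17% of all genes were under 0.05 unadjusted. DESeq2 called none of the 10 genes and 1 gene in all, and limma-voom called none. Without NaCl replicate 2, 15 genes were called higher and 78 lower, none of them among the 10. The signs divided evenly, with 5 genes higher and 5 lower in RGFP109. The groups were separate for 2 of the 10, both lower, where 13.8% of all genes were separate and lower and 12.8% separate and higher. The biological coefficient of variation was 32.1%, against 11.4% between PTS + RS and RS, so that the same fold is harder to detect here. Each group holds 1 library labelled cortex and 1 labelled amygdala, so the difference between the labels enters this spread. With a replicate block the SE fell from 0.56 to 0.24 for Mertk and from 0.34 to 0.20 for Tyro3. It rose for Axl, Megf10, Gas6, Mfge8 and Gulp1, and none of the 10 genes passed.

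Axl was one of the pair that did not overlap, at 55.7 and 63.1 CPM with RGFP109 and at 71.4 and 68.2 CPM with NaCl (log2 -0.23, 95% interval -0.66 to 0.19). Gulp1 was the other, at 4.25 and 5.14 CPM with RGFP109 and at 6.20 and 5.44 CPM with NaCl (log2 -0.31, 95% interval -1.10 to 0.48). Both intervals included 0. Mertk was at 38.5 and 67.3 CPM with RGFP109 and at 25.0 and 70.8 CPM with NaCl (log2 0.14, 95% interval -1.31 to 1.59). Its replicates, which carry different tissue labels, differed within a group by far more than the groups differed. Tyro3 had the same shape, at 174 and 264 CPM with RGFP109 and at 172 and 282 CPM with NaCl (log2 -0.05, 95% interval -0.94 to 0.84).

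Pros1, which had risen after stroke, was at 14.6 and 20.2 CPM with RGFP109 and at 15.2 and 18.5 CPM with NaCl (log2 0.04, 95% interval -0.62 to 0.71). These levels may be set beside the 12.2 to 14.6 CPM of RS and the 25.0 to 34.1 CPM of PTS + RS, although the tables were normalised separately and no test joins them. Cd36 was at 1.84 and 2.06 CPM with RGFP109 and at 0.910 and 5.55 CPM with NaCl. The NaCl libraries enclosed the RGFP109 libraries, and the interval of the log2 fold change ran from -2.98 to 1.52. Without NaCl replicate 1, the library with the olfactory bulb markers, the log2 fold change of Cd36 was -1.51, and without NaCl replicate 2 it was 1.10. Microglia markers summed to 436 and 593 CPM with RGFP109 and to 530 and 604 CPM with NaCl. Over the 12 markers the median log2 fold change was 0.13, with 10 above 0 and 2 below, the lowest being Sall1 at -2.05 (SE 0.98), and none of the 12 passed. Likewise, none of the 62 pathway genes passed.

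Because replicate number and tissue label go together, the ratio of RGFP109 to NaCl was also taken within each replicate number, with an exact 95% interval that covers counting error only. For 4 genes the ratios had opposite signs beyond counting error. The share of all tested genes with such ratios was not determined, so this count has no background beside it. Mfge8 was higher with RGFP109 in replicate 1 (log2 0.61, interval 0.53 to 0.70) and lower in replicate 2 (log2 -0.20, interval -0.28 to -0.13). Gas6 followed the same pattern (log2 0.44 and -0.15). Cd47 was lower in replicate 1 (log2 -0.25) and higher in replicate 2 (log2 0.46). Cd36, on counts of 29 against 16 and of 44 against 102, was at log2 0.93 and -1.38. Megf10 showed the largest drop of the other genes, in replicate 1 alone, at 20.6 CPM against 43.3 CPM (log2 -1.07, interval -1.26 to -0.88), with 0.12 in replicate 2 (interval -0.04 to 0.29). Each replicate 1 ratio rests on the library with the olfactory bulb markers, and how that library bears on these ratios was not tested.

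**Figure D5:**
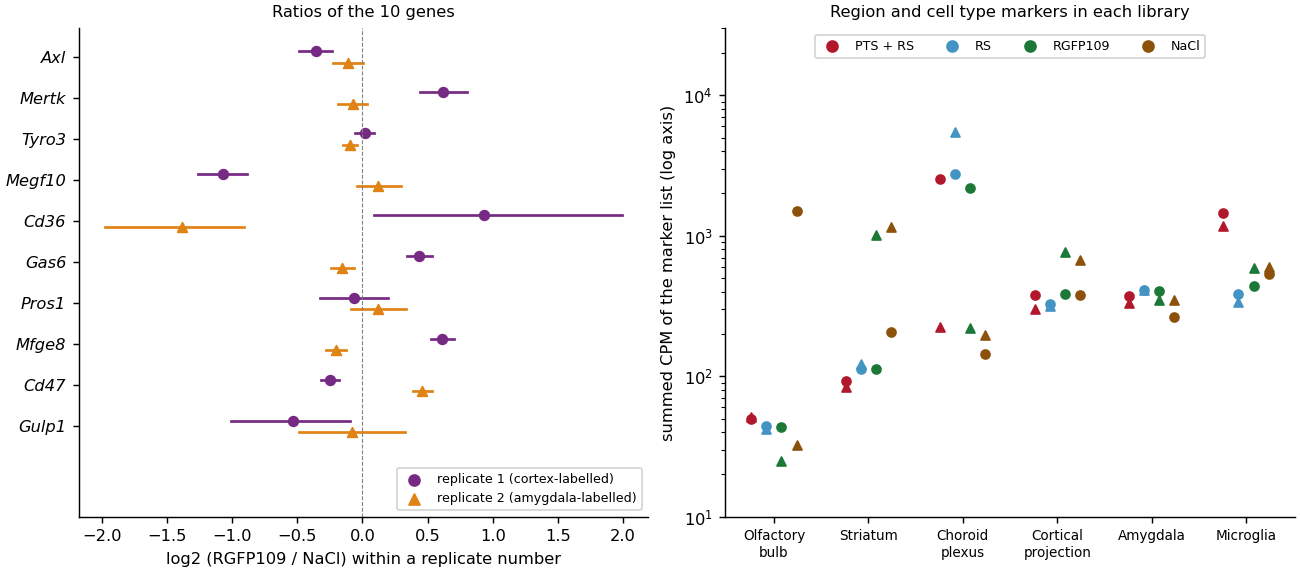
Left, log2 ratio of RGFP109 to NaCl for each gene within replicate 1 and within replicate 2, with exact 95% counting intervals. Right, summed CPM of marker lists in each library on a log axis (circles, replicate 1, triangles, replicate 2), where NaCl replicate 1 stands at 1501 CPM for olfactory bulb markers and the replicate 2 libraries of RGFP109 and NaCl at 1018 and 1160 CPM for striatal markers.

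The third comparison set the libraries labelled amygdala against those labelled cortex within the second experiment. None of the 10 genes passed the edgeR test, nor did any other gene (0%), although 11.2% of all genes were under 0.05 unadjusted, among them Mertk and Tyro3. Mertk was at 67.3 and 70.8 CPM in the libraries labelled amygdala and at 38.5 and 25.0 CPM in those labelled cortex (log2 1.12, SE 0.24, unadjusted p = 0.00644, adjusted p = 0.291). DESeq2 called it, with an adjusted p of 0.0219, and called 291 genes higher and 104 lower in all. Tyro3 was at 264 and 282 CPM against 174 and 172 CPM (log2 0.66, SE 0.14, unadjusted p = 0.00651, adjusted p = 0.291). Cd36 (log2 1.46, SE 0.65, adjusted p = 0.496) and Pros1 (log2 0.38, SE 0.16, adjusted p = 0.490) were separate and higher as well, so that 4 of the 10 genes were separate and higher, where 21.6% of all genes were. None of the 10 was separate and lower, where 22.4% of all genes were.

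This comparison turned on single libraries. Without NaCl replicate 1, 3 of the 10 genes passed, all higher in the libraries labelled amygdala, namely Mertk (log2 0.86, adjusted p = 8.3e-05), Tyro3 (log2 0.66, adjusted p = 2.9e-04) and Megf10 (log2 0.53, adjusted p = 0.0305), and 13.8% of all genes passed. Without RGFP109 replicate 1, 5 passed, with Mertk (1.47), Tyro3 (0.67) and Cd36 (2.05) higher and Megf10 (-0.55) and Cd47 (-0.42) lower, and 28.7% of all genes passed. Megf10 thus changed sign with the choice of library labelled cortex. With either library labelled amygdala left out none passed. The lone library is assumed to vary like the pair in each of these fits. Mertk and Tyro3 were higher in the libraries labelled amygdala in all 14 fits.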

How the data were processed

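RNA-seq of mouse brain was analysed in 8 libraries in 4 groups of 2. Per the submitters' processing notes and the methods, the authors aligned reads to GRCm38 (mm10) with STAR 2.4.0, counted reads per gene with HTSeq 0.6.1 and tested with limma. Whether counting used strand is not given in the sources used here, and the library kits named by the labels and the methods differ. The authors deposited raw counts per gene and FPKM, each FPKM being the count over the gene length and over 1 factor per library. The deposited fold changes, p-values, group means and 8 normalized per-library columns of the RGFP109 table were not used.

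Groups were taken from the labels. Counts were filtered with filterByExpr, scaled by TMM and tested with edgeR 4.0.16 (glmQLFit and glmQLFTest, R 4.3.3) over all genes, with Benjamini-Hochberg adjustment and a threshold of 0.05. The SE is the log2 fold change over the square root of F, and 95% intervals use the t quantile at the degrees of freedom of the test. CPM are counts scaled to the TMM-adjusted library size. Ratios within a replicate number used a prior count of 2. Gene levels were compared in deposited FPKM. The scripts were tested on simulated data. Alternatives were DESeq2 1.42.0, limma 3.58.1 (voom, and trend on log2(FPKM + 1) and log2(FPKM + 0.1)), RLE size factors, other filters, a replicate block, each library left out and, added after the data were seen, no scaling. Depth ranged from 15902013 to 21712033 counts, so the spread between replicates limits precision, except for Cd36 and Gulp1, with 16 to 110 counts.

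The 10 genes and all lists were chosen with earlier results of these data known. All 10 genes are reported, and for each pathway list the counts past the threshold, the median, and by name up to 3 genes past the threshold with the largest fold in each direction. Replicate numbers are shared between groups. Deviations of same-numbered libraries from the group means correlated at 0.299 for RGFP109 and NaCl, where the number carries the tissue label, and at 0.0352 for PTS + RS and RS. Gas6 overlaps Tmem255b on the other strand (at most 68 counts), and Mertk holds the snoRNA gene Gm23172 (at most 9 counts). Promoters are RefSeq sequences of GRCm38.p6, matched by symbol for 9 of the 10 genes.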

Additional observations from a re-analysis of the deposited data

Results flagged for a closer look

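The ratio of RGFP109 to NaCl moved in opposite directions in replicate 1, labelled cortex, and replicate 2, labelled amygdala, for 4 of the 10 genes. The log2 ratios were 0.93 and -1.38 for Cd36, 0.44 and -0.15 for Gas6, 0.61 and -0.20 for Mfge8, and -0.25 and 0.46 for Cd47. Each ratio compares 1 library with 1 library, so the difference between the replicates was not tested. The replicate 1 ratios rest on NaCl replicate 1, which held 1501 CPM of olfactory bulb markers against 43.8 CPM in RGFP109 replicate 1. Replicate number and tissue label cannot be told apart, and the share of all genes with such ratios was not determined.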

How the results depend on the processing

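Between PTS + RS and RS, 5 of the 10 genes were called in the reported fit and likewise with DESeq2, limma-voom, RLE size factors, other filters, no scaling and the replicate block (5). Limma-trend called 2 on log2(FPKM + 1) and 3 on log2(FPKM + 0.1), with Axl (adjusted p = 0.0581 and 0.0521) and Pros1 (0.0667 and 0.0593) missing in each and Tyro3 (0.0507) in the first. Leaving out a library gave 3 to 5, with ranges of -0.21 to 0.13 for Gas6 and -0.84 to 0.065 for Gulp1 in log2 fold change. Between RGFP109 and NaCl none of the 10 genes was called under any alternative, the replicate block included (0). With a library left out the log2 fold change ran from -0.38 to 0.36 for Tyro3, -0.012 to 0.31 for Gas6, -0.43 to 1.09 for Mertk, -0.21 to 0.26 for Pros1, -0.0077 to 0.45 for Mfge8, -1.51 to 1.10 for Cd36 and -0.22 to 0.44 for Cd47, and Pros1 was at -0.0035 with no scaling, which moved the median of all genes from -0.016 to -0.066. Between the libraries labelled amygdala and cortex, none was called in the reported fit, 1 by DESeq2, and 0 to 5 with a library left out, where the log2 fold change ran from -0.12 to 0.25 for Axl, -0.21 to 0.22 for Gas6, -0.26 to 0.34 for Mfge8, -0.55 to 0.53 for Megf10 and -0.23 to 0.33 for Gulp1. There Mfge8, at -0.0011 as reported, was at 0.0046 with DESeq2, 0.026 with limma-voom, 0.0044 with RLE size factors, 0.0048 with no filter, 0.033 and 0.035 with limma-trend (pseudocounts 1 and 0.1) and 0.028 with a treatment term. Gas6 was at 0.0042 and 0.0047 with limma-trend and Gulp1 at -0.017 with no scaling. The replicate block changed no call of the 10 genes, and the cause of these changes was not tested. Counts over all genes varied more, between RS and PTS + RS from 371 without RS replicate 2 to 2691 without PTS + RS replicate 2. Depth limits Cd36 and Gulp1 most, and 2 libraries a group limit all 10 genes.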
